A study of Mus musculus with 36 samples.

Results

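The Cyp2b and Cyp2a genes of mouse liver followed here are Cyp2b9, Cyp2b10, Cyp2b13, Cyp2a4, Cyp2a5, Cyp2a22 and Cyp2a12. They were taken by symbol from the authors' deposited liver tables, and they are 7 of the 12830 genes in at least 1 of these tables. The set was selected on its liver log2 fold changes in the 3 comparisons, with earlier results of these data in view, so the calls of its members describe them and are no independent evidence about the families. Livers came from C57BL/6J mice that had spent 16 weeks on calorie restriction (CR), on time-restricted feeding without calorie restriction (TR) or on food ad libitum (AL), with 6 liver libraries per group. Inguinal white adipose tissue (iWAT, a fat depot under the skin) was sequenced on the same diets, which makes 36 libraries in all. The sources used here give neither sex, nor age at sampling, nor time of day, and the labels name no gene modification in any group. An animal number occurs under both a CR and a TR label, and was counted as different mice. Because values per library were not analysed here, no library can be shown to stand apart or to match the rest of its group.

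CYP2A and CYP2B enzymes are cytochrome P450 monooxygenases of the endoplasmic reticulum, which receive electrons from P450 oxidoreductase and oxidize steroids, drugs and other foreign compounds. In mouse liver, Cyp2b10 is the classical target of the constitutive androstane receptor CAR (Nr1i3), the receptor through which phenobarbital acts. Cyp2b9, Cyp2b13 and Cyp2a4 are known as female-predominant genes of mouse liver, under the control of the sex-dependent pattern of growth hormone. Cyp2a5 encodes the coumarin hydroxylase of mouse liver, Cyp2a4 a testosterone hydroxylase, and Cyp2a12 a hydroxylase of steroids and bile acids.

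The 7 genes lay together on chromosome 7 of GRCm38, within 1140 kb from 25897620 to 27037375. In order, Cyp2b10 ran from 25897620 to 25926624, Cyp2b13 from 26061497 to 26096197, Cyp2b9 from 26173411 to 26210661, Cyp2a4 from 26307169 to 26315088, Cyp2a5 from 26835305 to 26843548, Cyp2a22 from 26931631 to 26939384 and Cyp2a12 from 27029081 to 27037375. Cyp2a22 is on the minus strand and the others are on the plus strand. The row holds pairs of close paralogs. The promoters of the 2 pairs with the most alike sequences are printed here because in each pair 1 gene was called between the diets and the other was not. They hold 250 bases before and 50 bases after the start in RefSeq on GRCm38.p6, where all 7 members had a promoter, and capitals mark bases that differ from the partner of the pair or have no partner in its window. The windows are chr7:26173159-26173458 for Cyp2b9, chr7:26061245-26061544 for Cyp2b13, chr7:26306942-26307241 for Cyp2a4 and chr7:26835089-26835388 for Cyp2a5, all on the plus strand.
Cyp2b9: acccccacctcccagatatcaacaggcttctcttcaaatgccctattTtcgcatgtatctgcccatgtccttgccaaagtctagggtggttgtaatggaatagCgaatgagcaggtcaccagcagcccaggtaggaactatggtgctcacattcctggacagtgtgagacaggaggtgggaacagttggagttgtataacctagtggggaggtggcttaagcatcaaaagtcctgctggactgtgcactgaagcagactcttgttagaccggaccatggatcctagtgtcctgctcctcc
Cyp2b13: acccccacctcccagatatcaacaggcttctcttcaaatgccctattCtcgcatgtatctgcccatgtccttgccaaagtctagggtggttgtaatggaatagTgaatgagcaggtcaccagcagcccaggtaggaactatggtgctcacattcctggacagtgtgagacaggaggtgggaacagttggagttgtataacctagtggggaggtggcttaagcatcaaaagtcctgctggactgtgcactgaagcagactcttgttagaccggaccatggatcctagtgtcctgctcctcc
Cyp2a4: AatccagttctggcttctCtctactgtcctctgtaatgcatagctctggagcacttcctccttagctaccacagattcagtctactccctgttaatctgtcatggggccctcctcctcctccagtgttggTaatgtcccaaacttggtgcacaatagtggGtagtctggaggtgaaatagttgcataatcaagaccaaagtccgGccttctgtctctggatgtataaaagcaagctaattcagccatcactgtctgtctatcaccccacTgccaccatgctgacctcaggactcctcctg
Cyp2a5: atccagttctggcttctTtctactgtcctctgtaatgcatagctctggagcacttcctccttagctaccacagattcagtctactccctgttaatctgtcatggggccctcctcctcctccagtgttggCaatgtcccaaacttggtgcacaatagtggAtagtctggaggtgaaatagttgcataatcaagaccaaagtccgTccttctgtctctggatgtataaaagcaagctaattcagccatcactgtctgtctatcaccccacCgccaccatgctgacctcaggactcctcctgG

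The promoters of Cyp2b9 and Cyp2b13 differed at 2 of 300 aligned bases, which is 99.3% identity. Those of Cyp2a4 and Cyp2a5 differed at 5 of 299 aligned bases, or 98.3% identity. The next closest pair was Cyp2a22 with Cyp2a12 at 91.6%, and Cyp2b9 and Cyp2b10 had 80.1%. The nuclear receptor half-site AGGTCA, searched on both strands, occurred in 4 of the 7 promoters (Cyp2b9, Cyp2b13, Cyp2a4 and Cyp2a5) and in 16.0% of the 27025 promoters of the table. It stood at position -138 from the start in both Cyp2b9 and Cyp2b13. In Cyp2a4 and Cyp2a5 it stood after the start, at positions 30 and 29, on the opposite strand. These genes form the pairs of nearly identical promoters, so matches within a pair are not separate occurrences. The HNF1 half-site GTTAAT occurred in Cyp2a4 and Cyp2a5 and in 7.20% of all promoters. The STAT motif TTCNNNGAA and the E-box CACGTG were found in 0 of the 7 promoters, against 8.47% and 7.24% of all. These matches describe the letters of short windows and were not tested as binding sites.

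In the mature transcripts, too, the members resembled each other closely, so reads can be split between them. The main coding transcripts of Cyp2a4 and Cyp2a5 differed at 30 of 1738 aligned bases (98.3% identity), those of Cyp2a22 and Cyp2a12 had 96.5% identity, and those of Cyp2b9 and Cyp2b13 had 91.9%. Between a Cyp2b and a Cyp2a transcript the identity lay between 70.3% and 74.7%. Of all stretches of 50 bases, 38.0% in Cyp2a4 and 40.8% in Cyp2a5 also occurred unchanged in another annotated gene, against 9.69% in Cyp2b10 and 11.2% in Cyp2b9. For Cyp2b13 it was 27.3%, with Gm45225, an annotated pseudogene of the same cluster that is listed in no liver table, alone holding 13.8%. The share was 25.7% in Cyp2a22 and 27.5% in Cyp2a12, each with the other. With stretches of 100 bases these shares fell to between 0% in Cyp2b10 and 14.4% in Cyp2a5. The read length is not stated in the sources used here, and RSEM, named in the submitters' processing notes, divides ambiguous reads by estimate. By whole gene spans, introns included, Cyp2a22 also overlaps the pseudogene Cyp2a21-ps on the opposite strand over 7754 bases. In the same way, Cyp2a4 overlaps the antisense gene Gm42375 over 118 bases, and Cyp2b13 overlaps Rnf170-ps. Bases shared between exons were not counted. None of these 3 overlapping genes is listed in a liver table, and whether counting used strand is not stated in the sources used here.

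Mean levels per group were derived from the authors' fitted log2 fold change and log2 mean CPM (reads counted per gene, scaled by the library's total). Most levels can be had from 2 tables, and 17 of 19 such pairs lay within 5% of each other, the widest being 17.4% apart for Cyp2a4 in CR. The error of a level over the 6 libraries of a group cannot be had from these tables, so a range below is that of the 2 derivations. In bulk RNA, fewer cells of a type and less RNA per cell cannot be told apart.

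Cyp2b9, per kb of transcript, was the highest Cyp2b gene on both diets. Its mean level was 136 to 140 CPM in CR and 257 to 266 CPM in TR, against 2.72 CPM in AL. Cyp2b13 had 2.75 CPM in CR and 86.1 to 89.5 CPM in TR, against 0.0115 CPM in AL. That AL level is below the lowest mean level in the liver tables and rests on the authors' fit. Both female-predominant Cyp2b genes thus had their highest derived level in TR and their lowest in AL, with no error attached to these levels. Cyp2b10, the CAR target, had 6.36 to 6.60 CPM in CR and 10.7 to 11.1 CPM in TR, against 2.68 to 2.69 CPM in AL.

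Among the Cyp2a genes, Cyp2a5 had 1631 to 1677 CPM in CR and 2002 to 2075 CPM in TR, against 578 to 580 CPM in AL. Its near copy Cyp2a4 had 1.06 to 1.25 CPM in CR and 19.3 to 20.1 CPM in TR, against 0.0998 to 0.114 CPM in AL. Cyp2a22 had 21.0 to 21.6 CPM in CR and 58.6 to 60.8 CPM in TR, against 19.5 to 19.6 CPM in AL. Cyp2a22 in CR was thus near its level in AL, and in TR above it. Cyp2a12 had 630 to 648 CPM in CR and 607 to 629 CPM in TR, against 509 to 512 CPM in AL, the flattest profile of the 7.

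**Figure D1:**
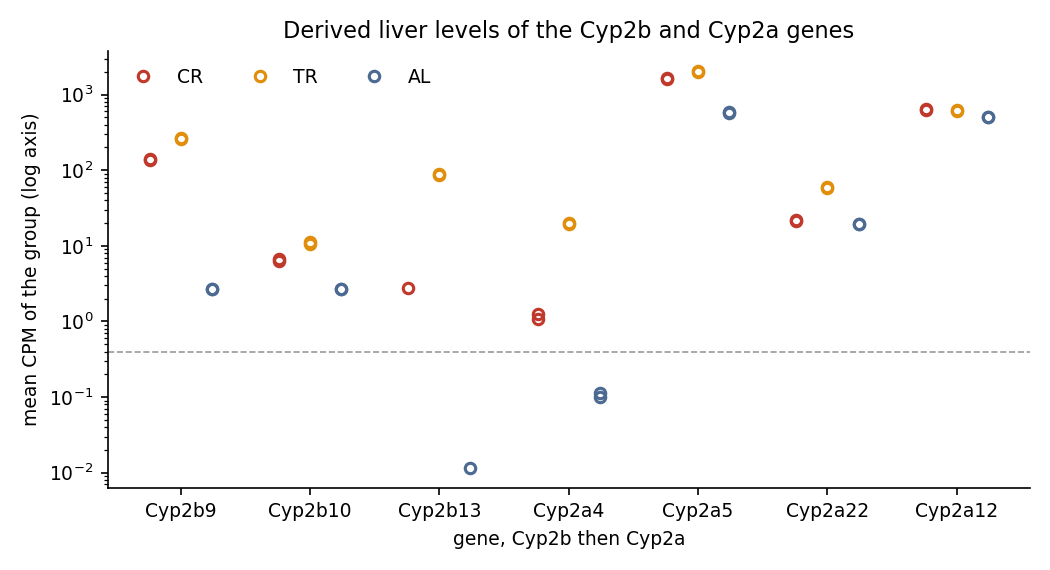
Derived mean level of each gene in liver (CPM, log axis) in CR, TR and AL, with a circle for each table it was derived from and a dashed line at the lowest mean level of any gene in the liver tables. Cyp2b13 and Cyp2a4 lie below that line in AL, at 0.0115 and 0.0998 to 0.114 CPM.

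Summed over its 3 genes, the Cyp2b subfamily had 147 CPM in CR and 360 CPM in TR, against 5.41 CPM in AL, which is 27.2-fold and 66.5-fold. The 4 Cyp2a genes had 2315 CPM in CR and 2736 CPM in TR, against 1109 CPM in AL, which is 2.09-fold and 2.47-fold. Per kb of transcript, Cyp2a5 was the highest member in CR (822 CPM per kb) and in TR (1013 CPM per kb), while in AL Cyp2a12 (304 CPM per kb) stood next to Cyp2a5 (288 CPM per kb). Cyp2b9 followed them on both diets, with 73.6 CPM per kb in CR and 139 CPM per kb in TR. At the low end in AL were Cyp2b9 and Cyp2b10, with 1.45 and 1.40 CPM per kb, then Cyp2a4 and Cyp2b13. The order of members within a group has no error attached to it.

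Across the groups, 6 of the 7 members had their highest derived level in TR and their lowest in AL, and Cyp2a12 had its highest in CR. Which of these neighbours differed is given by the authors' edgeR tests, with an adjusted p under 0.05 counted as changed and an approximate standard error (SE) taken from the fold change and its likelihood-ratio statistic.

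In CR against AL, 4 of the 6 members listed rose, 0 fell, and the median log2 fold change was 1.42 per the authors' deposited table, where 11.2% of all genes were called and 5.79% were called higher. Cyp2b9 had the highest log2 fold change of all genes in that table, 5.69 ± 0.73 (SE, adjusted p = 1.5e-12). Cyp2a4 had 3.46 ± 0.73 (SE, adjusted p = 7.5e-05) per the authors' deposited table, over an AL level near 0, so this value depends on the authors' prior count. Cyp2a5 rose by 1.54 ± 0.20 (SE, adjusted p = 6.0e-12), or 2.90-fold, and Cyp2b10 rose by 1.30 ± 0.30 (SE, adjusted p = 5.0e-04), or 2.47-fold, per the authors' deposited table. Cyp2a12 (0.35 ± 0.13 SE, adjusted p = 0.060) and Cyp2a22 (0.15 ± 0.29 SE, adjusted p = 0.82) did not pass per the authors' deposited table. Over the members, 5 of 6 had an unadjusted p under 0.05. Here and below, the share of all genes with such an unadjusted p is not given, so these counts have no background beside them.

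Cyp2b13 is not listed in the CR minus AL table. Its levels from the other tables imply a mean of 1.38 CPM over CR and AL, above the lowest mean in that table, 0.435 CPM. Of the 12487 genes in the other 2 liver tables, 11495 had an implied mean at least as high, and 11494 of these are listed in CR minus AL. Cyp2b13 was the only one that was not, and the authors' filter is not stated in the sources used here. It is therefore listed only in the comparisons that include TR, the group with its highest level. Its ranks in those comparisons describe it and are no independent evidence.

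In TR against AL, 6 of 7 members rose and 0 fell, with a median log2 fold change of 2.04, per the authors' deposited table, where 18.9% of genes were called and 9.35% were called higher. Cyp2b13 had the highest log2 fold change of all genes there, 12.92 ± 1.69 (SE, adjusted p = 2.8e-12), a value that rests on an AL level near 0 and on the authors' prior count, so it is no measure of fold. Cyp2a4 had 7.65 ± 0.93 (SE, adjusted p = 3.8e-14) per the authors' deposited table, with the same limit. Cyp2b9 rose by 6.61 ± 0.75 (SE, adjusted p = 3.5e-16), or 98.0-fold, per the authors' deposited table.

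Cyp2b10 rose by 2.04 ± 0.40 (SE, adjusted p = 8.3e-06), or 4.13-fold, in the authors' deposited table of TR minus AL. Cyp2a5 rose by 1.84 ± 0.20 (SE, adjusted p = 1.7e-17), or 3.58-fold, and Cyp2a22 rose by 1.63 ± 0.47 (SE, adjusted p = 0.0049), or 3.11-fold, per the authors' deposited table. Only Cyp2a12 missed the threshold, with 0.30 ± 0.14 (SE, adjusted p = 0.11) per the authors' deposited table, and all 7 members had an unadjusted p under 0.05. Both comparisons with AL use the same AL libraries, so their values are given side by side and no likeness between them was tested.

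**Figure D2:**
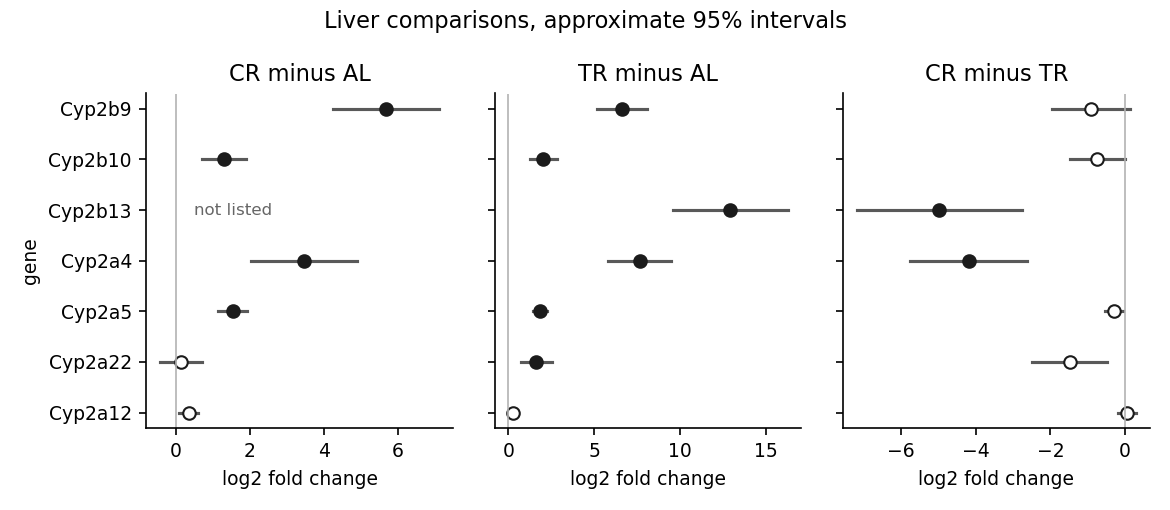
Log2 fold change of each gene in liver in the 3 comparisons, with approximate 95% intervals as lines and filled points for an adjusted p under 0.05; the horizontal scales differ between panels. All filled points lie above 0 against AL, and in CR minus TR the filled points are Cyp2b13 at -4.97 and Cyp2a4 at -4.18.

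Set directly against TR, CR livers had lower Cyp2b13 and Cyp2a4. These were 2 of 7 members, and 0 were higher, per the authors' deposited table, where 0.469% of genes were called and 0.31% were called lower; 5 of the 7 members had an unadjusted p under 0.05. Cyp2b13 had the lowest log2 fold change of all 12593 genes there, -4.97 ± 1.12 (SE, adjusted p = 0.0055), which makes it 31.3-fold lower in CR. Cyp2b13 is listed only in comparisons that include TR, where it was highest, and the members were selected on these fold changes. This rank is thus a description. The only measured transcript of Cyp2b13 had the same fold but an adjusted p of 0.20 per the authors' deposited table. Cyp2a4 had the second lowest, -4.18 ± 0.80 (SE, adjusted p = 3.0e-04), which makes it 18.1-fold lower in CR, per the authors' deposited table. Neither of these folds involves the AL livers.

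The other 5 members were not called in CR minus TR. Cyp2a22 had -1.48 with an interval of -2.48 to -0.49 (adjusted p = 0.18), and Cyp2b9 had -0.92 with an interval of -1.97 to 0.13 (adjusted p = 0.57), per the authors' deposited table. Cyp2b10 had -0.75 with an interval of -1.48 to -0.01 (adjusted p = 0.48), and Cyp2a5 had -0.30 with an interval of -0.54 to -0.05 (adjusted p = 0.35), per the authors' deposited table. Cyp2a12 had 0.05 with an interval of -0.18 to 0.29 (adjusted p = 0.93) per the authors' deposited table. These intervals leave room for CR levels of Cyp2b9, Cyp2a22 and Cyp2b10 that are less than those of TR by more than 1 log2 unit.

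Within both pairs of alike promoters, 1 gene was called in CR minus TR in the table of genes and its partner was not. Cyp2b13 had an interval of -7.17 to -2.76, which does not meet that of Cyp2b9, and Cyp2a4 had -5.75 to -2.61, which does not meet that of Cyp2a5. At the transcript level, Cyp2b13 had -7.99 to -1.95 and Cyp2b9 had -1.99 to 0.14, so these intervals do meet. Those of the transcripts of Cyp2a4 (-5.82 to -2.56) and Cyp2a5 (-0.52 to -0.10) do not. The difference between partners was not tested, since values of the same mice may vary together. Per kb, the level of Cyp2b13 was 2.00% of that of Cyp2b9 in CR and 33.6% in TR, against 0.424% in AL. The level of Cyp2a4 was 0.0807% of that of Cyp2a5 in CR and 1.12% in TR, against 0.0213% in AL. The level of Cyp2a22 was 3.12% of that of Cyp2a12 in CR and 9.04% in TR, against 3.59% in AL. These percentages were unequal across the 3 groups, and how far shared reads set them was not tested.

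**Figure D3:**
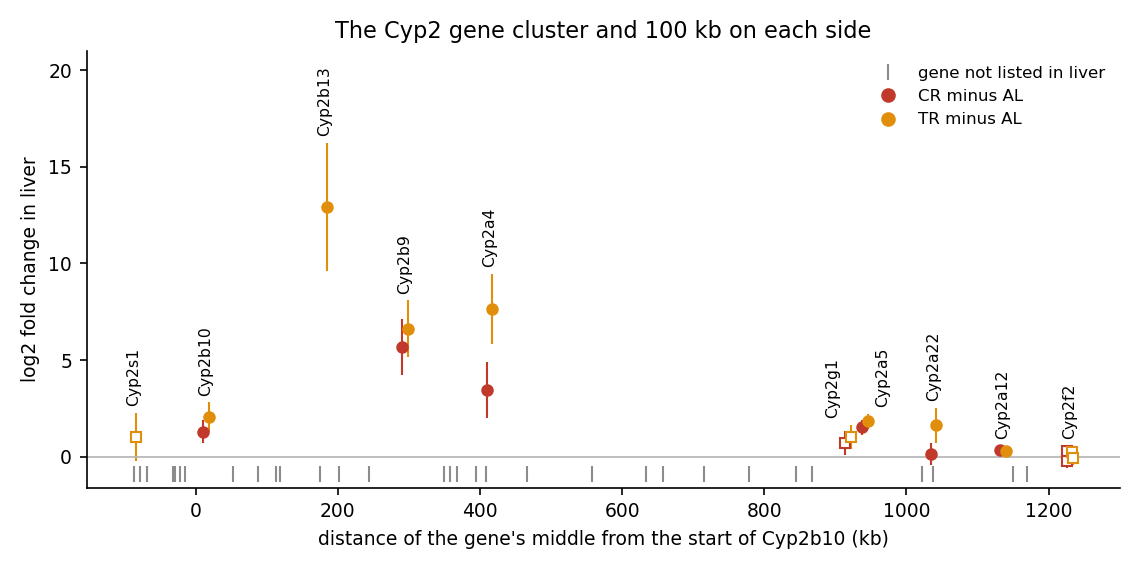
Log2 fold change in liver of the genes of the Cyp2 cluster and of 100 kb on each side, by distance of the gene's middle from the start of Cyp2b10 (kb), with CR minus AL in red and TR minus AL in orange, approximate 95% intervals, filled circles for the 7 members, open squares for other listed genes and ticks for genes listed in no liver table. The highest values belong to Cyp2b13, Cyp2b9 and Cyp2a4, which follow each other among the 7 members, with genes listed in no liver table between them.

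Along the cluster, the 3 members with the highest values in TR minus AL were consecutive among the 7. Cyp2b13, Cyp2b9 and Cyp2a4 follow each other, separated by genes listed in no liver table, with Cyp2b10 on one side and Cyp2a5 on the other. Of 30 annotated genes in the span, 15 are protein coding and 8 of these are not members. Only 1 other gene of the span, Cyp2g1, a P450 known mainly from olfactory tissue, is listed in a liver table. It rose by 1.03 ± 0.32 (SE, adjusted p = 0.011) in TR, and its value in CR was 0.73 (adjusted p = 0.14), per the authors' deposited tables. Within 100 kb on each side 3 genes are listed, and 0 of them were called in any comparison by the authors' edgeR test. Among these, Cyp2f2, an abundant periportal P450, had 0.28 in CR (adjusted p = 0.34), beside 0.25 in TR (adjusted p = 0.33) per the authors' deposited tables. Of a list of 11 genes in and around the cluster, 6 were measured in CR minus AL with 0 called and 2 at an unadjusted p under 0.05, 7 were measured in TR minus AL with 1 called, and 7 in CR minus TR with 0 called and 0 at an unadjusted p under 0.05.

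The fold changes of several members had large approximate SEs for their mean level. An SE taken this way also grows where the lower group is almost empty, as AL was for Cyp2b13 and Cyp2a4. The genes compared were matched on mean CPM alone and not on the level of the lower group. In TR minus AL, the SE of Cyp2b13 was 15.0 times the median SE of genes within 0.5 log2 units of its mean CPM, that of Cyp2b9 was 6.39 times and that of Cyp2a4 was 6.24 times. Those of Cyp2a22 and Cyp2b10 were 4.08 and 2.36 times that median. Cyp2a5 (1.32 times) and Cyp2a12 (0.978 times) were near the usual error. In CR minus AL the ratios were 6.53 for Cyp2b9, 2.18 for Cyp2a22, 1.90 for Cyp2a4, 1.58 for Cyp2b10, 1.34 for Cyp2a5 and 0.948 for Cyp2a12. In CR minus TR they were 10.5 for Cyp2b13, 5.67 for Cyp2a4, 4.70 for Cyp2a22, 4.39 for Cyp2b9 and 2.52 for Cyp2b10, with 1.05 for Cyp2a5 and 0.969 for Cyp2a12. How mice of a group spread was not tested, since values per library were not analysed here.

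**Figure D4:**
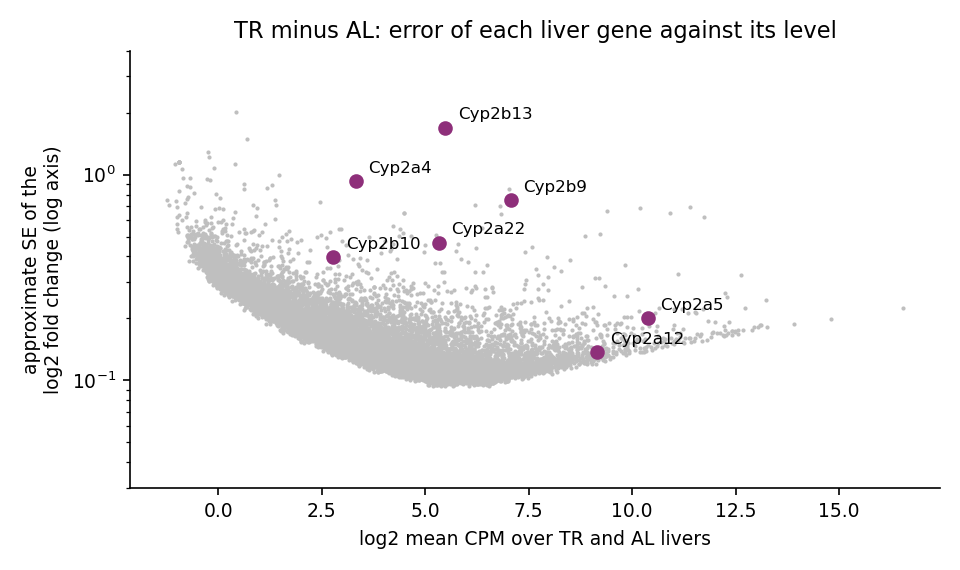
Approximate SE of the log2 fold change (log axis) against log2 mean CPM over TR and AL for every liver gene in TR minus AL (grey), with the 7 members in purple. Cyp2b13, Cyp2b9 and Cyp2a4 lie far above genes of like mean CPM, at 15.0, 6.39 and 6.24 times the median SE, and Cyp2a12 lies among such genes at 0.978 times. The AL group was almost empty for Cyp2b13 and Cyp2a4, which also raises an SE taken this way.

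At the level of transcripts, 9 of the 15 annotated transcripts of the members were measured, 1 per gene except for Cyp2a22 and Cyp2a12 with 2 each. Of 8 transcripts in CR minus AL, 2 rose (2.66% of all transcripts were called per the authors' deposited table); of 9 in TR minus AL, 6 rose (3.94%); and of 9 in CR minus TR, 1 was lower (0.323%). Cyp2a22 showed 2 different profiles. Its coding transcript Cyp2a22-201 had 11.8 CPM in CR and 30.0 CPM in TR, against 5.18 and 5.17 CPM in AL from both tables. The retained-intron transcript Cyp2a22-202 had 9.86 CPM in CR and 30.8 CPM in TR, against 14.5 CPM in AL. Per kb, the coding transcript had 6.55 CPM per kb in CR and 16.7 CPM per kb in TR, against 2.89 CPM per kb in AL, and the retained-intron one had 2.86 CPM per kb in CR and 8.95 CPM per kb in TR, against 4.21 CPM per kb in AL. The coding transcript was thus the higher of the 2 per kb in CR and TR, and the lower in AL. Its part of the CPM of the gene, without regard to length, was 54.4% in CR and 49.3% in TR, against 26.3% in AL.

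In the authors' deposited table of TR minus AL, Cyp2a22-201 rose by 2.54 ± 0.53 (SE, adjusted p = 1.8e-04), and Cyp2a22-202 had 1.09 ± 0.48 (SE, adjusted p = 0.27). In that of CR minus AL, they had 1.18 ± 0.44 (SE, adjusted p = 0.16) and -0.56 ± 0.32 (SE, adjusted p = 0.68), opposite in sign. The change of the share itself was not tested. In Cyp2a12, the coding transcript made up 96.9% of the CPM in CR and 96.7% in TR, against 96.0% in AL.

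**Figure D5:**
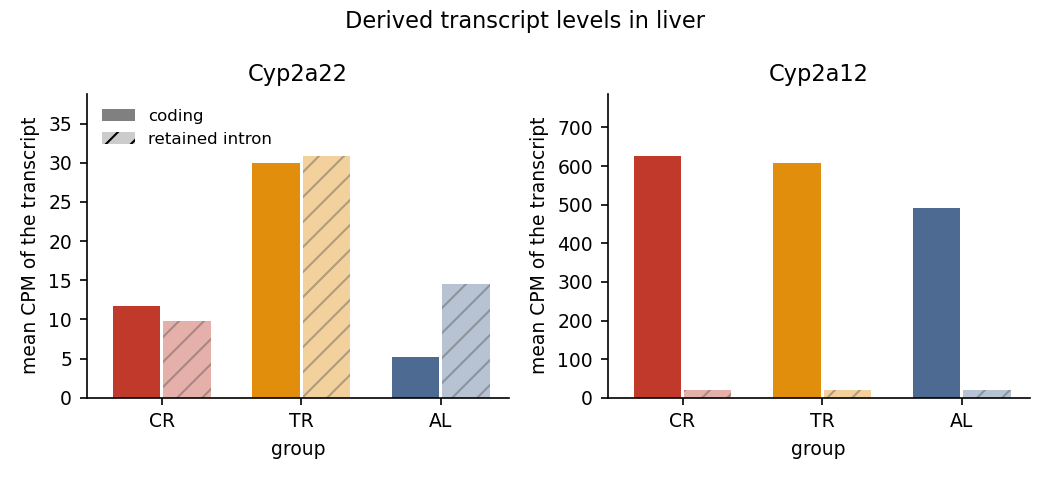
Derived mean CPM of the coding transcript (solid) and the retained-intron transcript (hatched) of Cyp2a22 and Cyp2a12 in CR, TR and AL livers, on separate vertical scales from 0 and not scaled by length. In Cyp2a22 the coding transcript has 11.8 CPM in CR and 30.0 CPM in TR, against 5.17 CPM in AL.

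Some calls of genes were not met by their only measured transcript, although the folds were nearly equal. For Cyp2b10 in CR minus AL the transcript had 1.28 (adjusted p = 0.070), and for Cyp2a4 it had 3.47 (adjusted p = 0.056), per the authors' deposited table. Cyp2b13 in CR minus TR had -4.97 at the transcript level too, with an adjusted p of 0.20 per the authors' deposited table. Such losses were frequent: over all genes with 1 measured transcript, 68.9% of the genes called in CR minus AL, 73.4% in TR minus AL and 66.7% in CR minus TR were not called as transcripts.

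Of 16 receptors and redox partners of these enzymes, 1 rose in CR and 2 in TR, with 0 lower, and medians of 0.15 and 0.12 per the authors' deposited tables, where the median of all genes was -0.0037 and -0.0005. Over all genes 5.79% were called higher in CR and 9.35% in TR, and the counts of this list lie near those shares. In CR the 1 was Egfr, the growth factor receptor whose blocking by phenobarbital activates CAR, with 1.15 (adjusted p = 0.019). In TR they were Por, the P450 oxidoreductase, with 0.85 (adjusted p = 4.3e-06), and Cyb5r3, the cytochrome b5 reductase, with 0.54 (adjusted p = 0.0035), per the authors' deposited table. The CAR transcript Nr1i3 had -0.09 in CR and -0.01 in TR, and that of its relative PXR (Nr1i2) had 0.31 and 0.08, none of them called, per the authors' deposited tables. In CR minus TR, 0 of the 16 were called by the authors' edgeR test and 2 had an unadjusted p under 0.05.

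Other known targets of CAR and PXR rose in part. Of 27 measured in CR minus AL, 9 rose and 0 fell, with a median of 0.34, and of 28 in TR minus AL, 15 rose and 0 fell, with a median of 0.48, per the authors' deposited tables, beside 5.79% and 9.35% of all genes called higher. Negative values, none of them called, were 7 of the 27 in CR and 5 of the 28 in TR. Por, also in the list of receptors and partners, is among the 15. Gstm3, a glutathione transferase, rose by 1.26 in CR (adjusted p = 3.1e-08), beside 1.91 in TR (adjusted p = 5.9e-16), and Cyp1a2, which metabolizes caffeine, rose by 1.11 and 1.19 per the authors' deposited tables. In CR minus TR, 2 of 28 were lower, the glucuronosyltransferase Ugt1a9 with -0.50 (adjusted p = 0.029) and the stress gene Gadd45b with -1.39 (adjusted p = 0.038), per the authors' deposited table, beside 0.31% of all genes called lower.

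Sex-biased P450 genes outside the 2 subfamilies were called in both directions, beside 11.2% of all genes called in CR and 18.9% in TR. By direction, 731 genes were higher and 678 lower of 12636 in CR, and 1186 were higher and 1211 lower of 12691 in TR. Of 10 female-biased ones measured, the CR livers had 1 higher and 3 lower and the TR livers 3 higher and 2 lower, with medians of -0.01 and 0.17 per the authors' deposited tables. Cyp39a1, an oxysterol hydroxylase, rose by 0.76 in CR (adjusted p = 0.041), beside 1.38 in TR (adjusted p = 7.0e-16), while the fatty acid hydroxylase genes Cyp4a10 and Cyp4a14 fell, at -2.94 and -3.24 in CR, beside -2.60 and -3.02 in TR, per the authors' deposited tables. Of 9 male-biased ones, the CR livers had 1 higher and 2 lower and the TR livers 0 higher and 6 lower, with medians of -0.22 and -0.65 per the authors' deposited tables. The fatty acid hydroxylases Cyp4a12b and Cyp4a12a fell, with -1.75 and -1.54 in TR, per the authors' deposited table. In CR minus TR, 1 of the 10 female-biased genes was lower, beside 0.31% of all genes called lower. It was Cyp7a1 of bile acid synthesis, with -0.58 (adjusted p = 0.022) per the authors' deposited table. Of the 10 values, 8 were negative and 6 had an unadjusted p under 0.05. Of the 9 male-biased ones in CR minus TR, 0 were called by the authors' edgeR test, 9 of 9 values were positive and 5 had an unadjusted p under 0.05. The shares of all genes with such signs or such an unadjusted p are not given, so these counts describe the lists only.

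Of the genes of growth hormone signalling and the sex-biased liver regulators, the CR livers had 2 of 19 higher and 1 lower and the TR livers 2 of 20 higher and 1 lower, per the authors' deposited tables, beside 11.2% and 18.9% of all genes called in either direction. Igf1, the circulating growth factor made by the liver, rose by 0.62 in CR (adjusted p = 3.5e-04), beside 0.55 in TR (adjusted p = 0.0014) per the authors' deposited tables. Cux2, a female-specific repressor of mouse liver, had -2.26 in CR minus TR (adjusted p = 0.065) per the authors' deposited table, with a mean below 1 CPM, and it is not listed in CR minus AL. In CR minus TR, 0 of 20 were called by the authors' edgeR test and 6 had an unadjusted p under 0.05.

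Markers of the tissue were as labelled, with all 6 hepatocyte markers listed and 0 of 4 adipocyte markers listed in any liver table. The calls of markers below stand beside 5.79% of all genes called higher in CR and 9.35% in TR. Called lower were 678 of 12636 genes in CR and 1211 of 12691 in TR. Red blood cell markers were higher on both diets, 3 of 4 in CR and 4 of 4 in TR, with summed levels of 445 to 458 CPM in CR and 609 to 633 CPM in TR, against 240 to 242 CPM in AL. Those of Kupffer cells, the liver macrophages, summed to 141 to 145 CPM in CR and 121 to 125 CPM in TR, against 173 CPM in AL, with 2 of 6 lower in TR. Of the bile duct cell markers, 2 of 5 measured rose in CR and 2 of 4 measured rose in TR, with sums of 55.3 to 56.9 CPM in CR and 51.0 to 52.0 CPM in TR, against 37.1 to 37.4 CPM in AL. Pericentral hepatocyte markers, from the zone where CAR targets are known to be expressed, had 3 higher and 2 lower of 9 on each diet, and summed to 12241 to 12591 CPM in CR and 11644 to 12068 CPM in TR, against 11346 to 11408 CPM in AL. Cyp1a2, higher on both diets, is also in the list of CAR and PXR targets. Periportal hepatocyte markers had 1 higher and 0 lower of 8 on each diet. They summed to 5077 to 5223 CPM in CR and 4970 to 5149 CPM in TR, against 4174 to 4206 CPM in AL. The part of these cell types in the results on the members was not tested.

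The genes most like a member were sought among 11192 genes that are no members and have a log2 mean CPM of at least 0 in both comparisons with AL, by distance in the plane of the log2 fold changes of CR minus AL and TR minus AL, so over 2 comparisons that share the AL libraries. Among the 3 nearest to Cyp2b9 were the lipase-family gene Pnpla3, at a distance of 2.21 log2 units, and the hepcidin gene Hamp2 at 3.44. Among the 3 nearest to Cyp2a4 were Pnpla3 at 3.31 and the transporter gene Slc22a26 at 3.56. The nearest to Cyp2a5 was the fatty acid desaturase gene Scd1 at 0.058. Next were the elongase gene Elovl6 at 0.077 and the lipid transporter gene Mfsd2a at 0.141. For CR over AL, the rank by highest fold change was 1 for Cyp2b9, 7 for Cyp2a4 and 49 for Cyp2a5. For TR over AL these ranks were 4, 3 and 52. Few genes lie near the extremes of this plane, so the distances of different members cannot be compared as likeness. The measure cannot be given for Cyp2b13, which is not listed in CR minus AL.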

How the data were processed

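RNA was sequenced from liver and iWAT libraries made with an Illumina TruSeq kit, per the labels' protocols. Per the submitters' processing notes, bcl2fastq 2.20, STAR 2.5.3a, RSEM and GRCm38.p5 were used; the sources used here do not give filter, normalization or edgeR version. Per the file headers, each deposited table holds 1 edgeR comparison. The authors' fitted fold change and mean CPM are deposited as log2 values. The likelihood-ratio statistics of the authors are deposited as score values. The p-values and FDR (adjusted p) are those of the authors, deposited as such. Depth per library is unknown here, and so are SDs.

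The 3 liver tables of genes and 3 of transcripts were used as deposited, with an adjusted p under 0.05 as a call. The design had foreseen counts, and it names the authors' FDR where only comparisons are given. The SE is the absolute log2 fold change divided by the root of that statistic, and a 95% interval is 1.96 SE on each side. Derived group means combine both log2 values. Whether these formulas hold where a group was almost empty, as AL was for Cyp2b13 and Cyp2a4, was not tested. Labels do not say which libraries share a cage or day.

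Positions and transcripts came from GENCODE M21 (GRCm38), promoters from RefSeq. Python 3.11.15, pandas 2.3.3 and Biopython 1.88 were used. Named were all members, up to 3 genes per list and comparison with the smallest adjusted p, and the 3 nearest genes by fold, of which 1 is not reported here; single counts are named from their lists, and Nr1i3, Nr1i2 and Cyp2f2 were named after their values were seen. The members and lists were chosen with earlier results of these data known.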

Additional observations from a re-analysis of the deposited data

Results flagged for a closer look

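Cyp2b10 is the member with a signal above the AL group in iWAT, which the liver comparisons do not use. Its log2 fold change was 2.02 against AL in CR (adjusted p = 0.039) and 2.55 against AL in TR (adjusted p = 0.0053) per the authors' deposited tables, with derived levels of 1.04 CPM in CR and 1.45 CPM in TR, against 0.256 and 0.248 CPM in AL. Its direction was that of the liver, at levels near the lowest listed, and the difference between the tissues was not tested. Values per library were not analysed here, so no group could be searched for a library far from the others.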

How the results depend on the processing

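Of 107 recomputed values, 95 kept their direction and their side of the threshold, stayed within 1.5 times the count or, for levels and differences, within the SE. Among the 107 are 19 second derivations of group levels and 26 folds centred on the median or taken as a difference. These reuse the same fits and could hardly differ, so their staying the same is no check of the results. The value of Cyp2a22 in CR minus AL, called in neither table, turned to -0.56 (adjusted p = 0.68) with its transcript of highest CPM, against 0.15 for the gene; that transcript is the retained-intron one. When members were called from their transcript of highest level, an alternative added after seeing the data, 2 instead of 4 were called in CR minus AL and 1 instead of 2 in CR minus TR. At an FDR of 0.01, the 3 calls among the lists of partners and regulators in CR minus TR became 0. In other settings (FDR of 0.01, recomputed Benjamini-Hochberg adjustment, a log2 mean CPM of at least 1, an absolute log2 fold change of at least 1, centring on the median of all genes) the count of members called stayed within 1.5 times; it was 3 in CR minus AL with the CPM minimum, which leaves out Cyp2a4. No paired analysis was possible because the deposited tables hold fitted comparisons and no values per library; leaving out a replicate was not run for the same reason. Depth per library is unknown, and levels near 0 in AL limit the folds of Cyp2b13 and Cyp2a4.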

Other observations

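The iWAT log2 fold change of Cyp2a12 was -4.33 in CR minus AL (adjusted p = 0.013) and -6.66 in CR minus TR (adjusted p = 0.017) per the authors' deposited tables. Its derived level was 0.294 CPM in CR and 29.2 CPM in TR, against 5.93 and 5.76 CPM in AL. Cyp2a5 had -2.10 in CR minus AL (adjusted p = 0.35) and 3.43 in TR minus AL (adjusted p = 0.19) per the authors' deposited tables. The 6 hepatocyte markers differed in the same directions: 5 of 6 were lower in CR with a median of -3.88, and their median in TR was 2.23 with 0 called by the authors' edgeR test. Their summed level was 188 CPM in CR and 5907 CPM in TR, against 872 and 865 CPM in AL, and their part in the iWAT values of the members was not tested. Cyp2b9, Cyp2b13 and Cyp2a4 are not listed in the iWAT tables.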
